A study of Mus musculus with 12 samples.

Results

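The replication-type histone genes of the mouse were taken as all gene names that begin with Hist1h, Hist2h, Hist3h or Hist4h, whatever their level. This name rule found 70 of the 43243 gene names measured. They comprised 6 genes of the linker histone H1, 20 of H2A, 19 of H2B, 12 of H3 and 13 of H4. By GENCODE M21 on GRCm38, 56 lie on chromosome 13, 10 on chromosome 3, 3 on chromosome 11 and 1 on chromosome 6. The family was put forward with genotype and S5 results of these libraries already known, so its differences are given as a description, with no support drawn from the choice.

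H2A, H2B, H3 and H4 form the core of the nucleosome, and H1 binds the linker DNA between nucleosomes. Replication-type histone genes are transcribed mainly in S phase, under the coactivator Npat. Their mRNAs usually end in a short stem-loop bound by the protein Slbp in place of a poly(A) tail, although some of these genes can also give polyadenylated transcripts. Replacement histones such as H3.3 are made outside S phase from genes elsewhere in the genome, with ordinary poly(A) tails.

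RNA was sequenced from mouse prostate organoids, cultures in Matrigel grown from digested prostate tissue, with 6 libraries labelled SPOPmut and 6 labelled SPOPwt; titles number them S0 to S5, and libraries of 1 number were treated as a pair. SPOP is the substrate adaptor of a cullin ubiquitin ligase. The labels' protocols describe an allele at R26 that encodes SPOP F133V. In inducible cultures a CreERT2 recombinase came either from a virus with puromycin selection (Line_A) or from a TMPRSS2-CreERT2 transgene (Line_B). It was activated overnight with 1 µM 4-hydroxytamoxifen. In a noninducible system, Cre under the Probasin promoter was present in SPOPmut (PbCre;R26F133V) and absent from controls. All cultures are described with 5 to 50 ng/ml EGF. SPOPmut cells of the inducible cultures were sorted for GFP and the controls were sham sorted, so an effect of the mutant and one of the GFP selection cannot be told apart. The protocols give 5 pairs of a model A and 1 pair of a model B. They name no library's model and do not say whether models A and B are Line_A and Line_B. No label says whether the pairs came from separate mice or cultures, so the spread behind the p-values is that between these libraries and may be technical.

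The spacing of low values put the depth at 56500000 to 76120000 counting steps per library in SPOPmut and 70600000 to 82040000 in SPOPwt, where 1 step may be a read or part of a read pair. At this depth 1 RPKM (reads scaled by transcript length and library depth) in a histone mRNA of 0.5 kb rested on 28.2 to 41.0 steps. Spop averaged 51.4 ± 3.66 RPKM in SPOPmut libraries, against 46.0 ± 4.18 RPKM in SPOPwt (SD, n = 6 each), and was higher in SPOPmut in 6 of 6 pairs. Both S5 libraries stood apart in their cell type markers. Summed RPKM of the basal markers Krt5, Krt14 and Trp63 was 1861 to 2768 in S5 and 0.14 to 2.54 in S0 to S4. The sum of Col1a1, Col1a2, Vim, Pdgfrb and Acta2, markers of fibroblasts and smooth muscle, was 0.90 to 2.58 RPKM in S5 and 881 to 1681 RPKM in S0 to S4. Epcam, a defining epithelial gene, had its highest value in S0 to S4 at 1.28 RPKM, and the 10 libraries of these pairs, labelled as prostate organoid, thus lacked epithelial markers at the level of S5. The 2 S0 libraries also deviated from their group means hardly together (r = 0.0602 across genes, against 0.753 to 0.954 in the other pairs).

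The 3′ stem-loop was searched in the first 100 bases after the stop codon of each GENCODE M21 model, as GGNNCT, a loop of 4 bases and AGNNCC, with the 6 bases of each arm perfectly paired. It is shown here because it sets this family apart from ordinary mRNAs. It was found in 46 of the 70 genes. Among 20226 protein-coding genes searched with a 3′ UTR of at least 100 bases, 33 (0.163%) had it, and 26 of those belonged to the histone clusters. A member with a match counted at any 3′ UTR length, so the 26, not the 46, compare with these 33. Another 17 members had models too short to search, and 3 (Hist1h2aj, Hist1h2al and Hist3h2bb-ps) are annotated as pseudogenes. The 4 members with no match were all H2B genes: Hist1h2bc, Hist2h2be, Hist1h2bq and Hist1h2br. In the sequences below, read 5′ to 3′ on the gene's own strand of GRCm38, capitals mark the paired stem.
Hist1h2bh, chr13:23542928-23542943, minus strand: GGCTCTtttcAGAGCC
Hist1h1c, chr13:23739512-23739527, plus strand: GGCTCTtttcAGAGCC
Hist1h4i, chr13:22040966-22040981, minus strand: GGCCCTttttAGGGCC
Hist1h3g, chr13:23535889-23535904, plus strand: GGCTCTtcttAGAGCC

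The form of Hist1h2bh and Hist1h1c was the most frequent, in 26 members (3 H1, 10 H2A, 8 H2B and 5 H3). None of the 12 matched H4 genes had it: 7 H4 genes carried a stem of GGCCCT and AGGGCC with loop tttc, and 2, Hist1h4i among them, the same stem with loop tttt. Hist1h2bc had no match in the searched window of its model. Its model has 2 exons and a 3′ UTR of 742 bases with an AATAAA hexamer, the common poly(A) signal, 296 bases after the stop codon. These other traits also occur in members with a stem-loop. Hist1h2be, for example, has 2 exons, a 3′ UTR of 1906 bases and AATAAA 229 bases after the stop codon. The stem-loop was searched in spliced transcripts, and the place of the intron was not compared between these models. A stem-loop that splicing removes from the window would thus be missed.

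Most of the family was measured at low levels. A mean of at least 1 RPKM over the 12 libraries was reached by 17 members, 14 lay from 0.5 to under 1 RPKM, and 39 were under 0.5 RPKM. Hist1h2aa was listed at 0 in all 12 libraries, and 37 members stayed under 1 RPKM in every library. The most abundant were Hist1h1c, an H1 gene, with a mean of 36.7 RPKM, Hist1h2bc with 31.7, Hist1h4i, an H4 gene, with 8.34 and Hist1h2bg, a second H2B gene, with 8.27. Libraries were made with a TruSeq kit that, as background, selects RNA by its poly(A) tail, so these RPKM values need not follow the full amount of mRNAs that lack one. Reads can also be shared with other genes, inside or outside the family. In the median member 54.1% of all 51-base windows, the read length, recurred in a transcript of another gene on either strand. That gene could be a model overlapping the member itself, and 36 members exceeded 50%. Values of such members are uncertain, since the treatment of reads with several matches is not given in the sources used here.

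**Figure D1:**
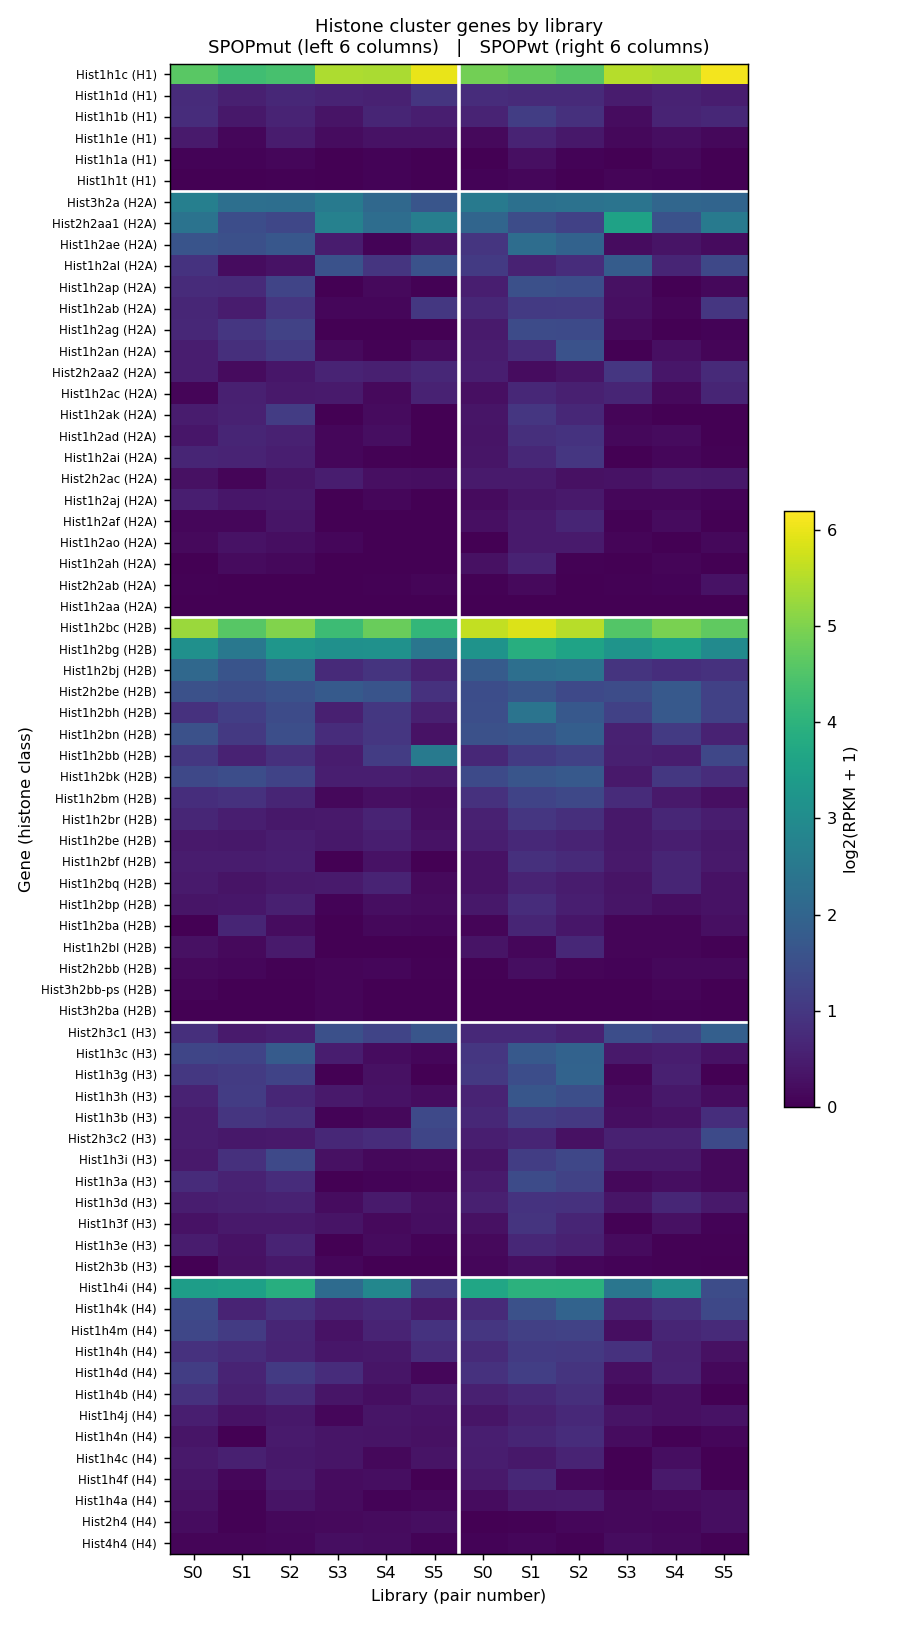
Levels of all 70 histone genes as log2(RPKM + 1), with genes in rows grouped by class and libraries in columns, SPOPmut left of SPOPwt. A few bright rows, such as Hist1h1c at a mean of 36.7 RPKM and Hist1h2bc at 31.7 RPKM, carry most of the signal of their classes, and Hist1h3g, for example, is brighter in S0 to S2 than in S3 to S5.

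The genotype comparison asks which genes differed between SPOPmut and SPOPwt organoids within pairs. Of the 69 members detected, 54 (78.3%) had a lower mean log2(RPKM + 1) in SPOPmut and 15 a higher one, against 45.0% of all detected genes lower. The median difference of SPOPmut minus SPOPwt was -0.078 over the members and 0.0027 over all detected genes. By class, 16 of 19 H2B genes, 16 of 19 detected H2A genes, 10 of 12 H3 genes, 8 of 13 H4 genes and 4 of 6 H1 genes had a lower mean. The pairs differed in how many members were lower: 29 of 69 in S0, 61 in S1, 48 in S2, 35 in S3, 44 in S4 and 41 in S5. Leaving aside genes equal in both libraries of a pair, this was 42.6% of members in S0, 91.0% in S1, 72.7% in S2, 51.5% in S3, 65.7% in S4 and 68.3% in S5. The same share over all detected genes was 42.8% in S0, 48.2% in S1, 42.0% in S2, 46.9% in S3, 50.4% in S4 and 47.6% in S5. The members' share was thus near that of all genes in S0 and S3 and farthest above it in S1.

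No single gene passed the test across all genes. limma with pair as a block called 0 of 13600 genes tested (0.0%) at an adjusted p under 0.05, and 761 (5.6%) had an unadjusted p under that value. The 13 members that reached 1 RPKM in at least 6 libraries were tested; 0 were called, 7 had an unadjusted p under 0.05, and their adjusted p ranged from 0.769 to 0.995 in limma. The other 57 members fell below that level filter and were not tested.

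Lower in SPOPmut than in their own SPOPwt in all 6 pairs were 8 genes, at least 1 from each class: Hist1h2bc, Hist1h2bg, Hist1h2bh and Hist1h2bm of H2B, Hist1h1c of H1, Hist1h4i of H4, Hist1h3d of H3 and Hist1h2ac of H2A. They were 8 of 69 detected members, beside 1.02% of the 30285 genes detected in any library. No member was higher in all pairs, beside 2.63% of detected genes. Among tested genes the counts were 5 of 13 members lower in all pairs, beside 1.68%, and 0 members higher, beside 3.62%. Nothing is read from these counts, since the family was chosen with this contrast known.

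H2B genes had the largest average difference of any class in summed RPKM. The H2B sum was 58.4 RPKM in SPOPmut and 69.3 in SPOPwt in pair S0, 39.1 and 92.9 in S1, and 54.1 and 75.7 in S2. It was 32.3 RPKM in SPOPmut and 37.9 in SPOPwt in S3, 43.1 and 50.9 in S4, and 28.8 and 39.7 in S5. The SPOPmut library was the lower in every pair, while the ranges of the genotypes overlapped across pairs. On average the sum was 42.6 ± 11.8 RPKM in SPOPmut, against 61.1 ± 21.9 RPKM in SPOPwt (SD, n = 6 each), a mean log2 ratio of -0.49 ± 0.39 within pairs. Pair S1 had the ratio of largest size, -1.25, and the others lay between -0.48 and -0.23; without S1 the mean was -0.33.

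Hist1h2bc made up 56.1 to 69.5% of the H2B sum. This gene (ENSMUSG00000018102.5, chr13:23684199-23692908, plus strand) stood at 37.2, 22.9, 31.5, 18.2, 26.4 and 16.1 RPKM in SPOPmut of S0 to S5, against 48.2, 57.6, 45.1, 22.2, 29.9 and 24.6 RPKM in SPOPwt. S1 held the highest SPOPwt value but a middling SPOPmut one, and the genotypes overlapped across pairs. The mean difference in log2(RPKM + 1) was -0.53 (SE 0.14, limma adjusted p = 0.801). With Hist1h2bc left out, the sum of the remaining H2B genes had a mean log2 ratio of -0.38. This sum was lower in SPOPmut in 5 of 6 pairs, S0 being at 0.01. Of the windows of read length, other genes held 30.4% in Hist1h2bc, most often Hist1h2bg, and 49.6% in Hist1h2bg, most often Hist1h2bc. The values of Hist1h2bc and Hist1h2bg may thus not be separate, nor may the sum without Hist1h2bc be free of its reads.

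Hist1h2bh (ENSMUSG00000114456.1, chr13:23541714-23543392, minus strand), whose stem-loop is given above, was at 0.84, 1.23, 1.67, 0.46, 1.00 and 0.46 RPKM in SPOPmut of S0 to S5. In SPOPwt it was at 1.83, 4.25, 2.26, 1.30, 2.32 and 1.31 RPKM. The SPOPmut value of S2 exceeded the SPOPwt values of S3 and S5, so the groups overlapped, but each SPOPmut library was below its partner. The mean difference was -0.70 (SE 0.11), the largest among the 13 members tested, with a limma adjusted p of 0.769. Other genes held 18.5% of its 51-base windows.

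Hist1h2bg (ENSMUSG00000058385.8, chr13:23571396-23572013, plus strand) stood at 7.68, 4.60, 8.54, 7.71, 7.83 and 4.40 RPKM in SPOPmut of S0 to S5, against 8.09, 13.9, 11.1, 8.19, 10.3 and 6.87 RPKM in SPOPwt. The pair S1 was again the widest apart, at a log2 difference of -1.41, while S0 and S3 differed by -0.07 and -0.08. The mean difference was -0.47 (SE 0.17, limma adjusted p = 0.881), and it was -0.28 without S1. Hist1h2bm was scarcer, at 0.092 to 0.86 RPKM in SPOPmut, against 0.19 to 1.55 RPKM in SPOPwt, and its mean difference of -0.33 was not tested. Other H2B genes ran both ways within pairs: Hist1h2bj was lower in SPOPmut in 4 of 6 pairs (-0.15), Hist1h2bk in 5 of 6 (-0.24) and Hist2h2be in 3 of 6, with means of 1.82 RPKM in SPOPmut and 1.80 in SPOPwt.

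**Figure D2:**
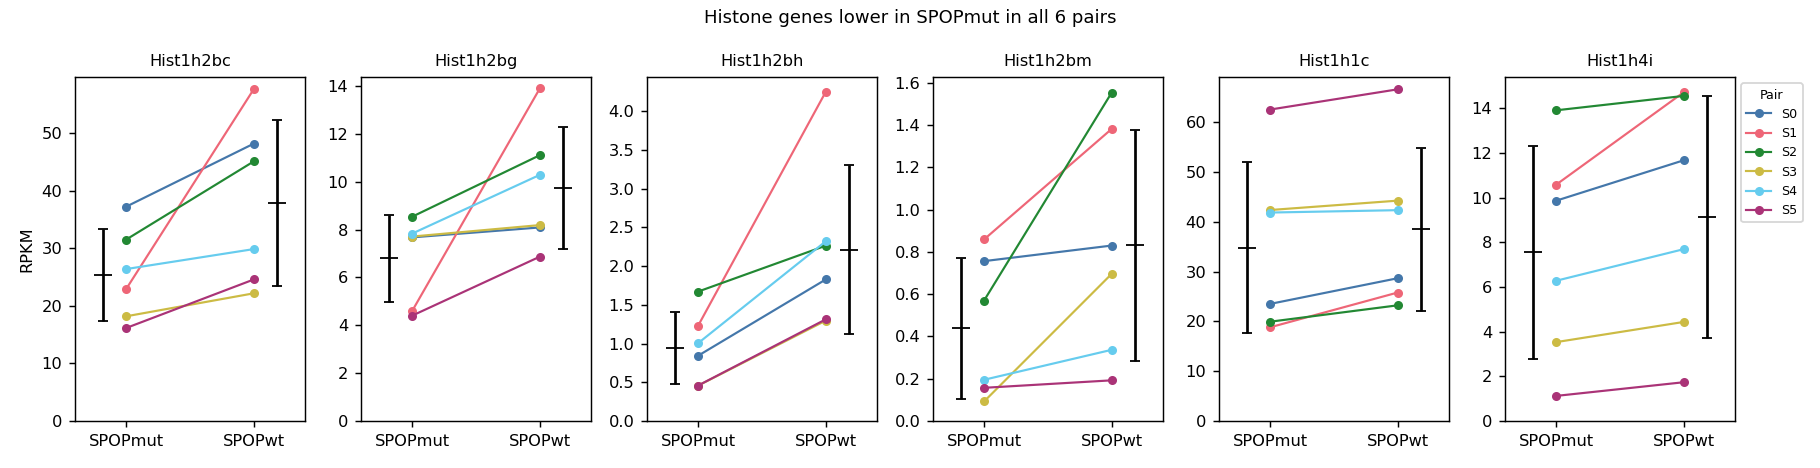
RPKM of 6 of the 8 genes that were lower in SPOPmut in all 6 pairs, with 1 line per pair and bars for the mean and SD of each genotype (n = 6). Every line runs upward to SPOPwt, most steeply for S1 in Hist1h2bc, Hist1h2bg and Hist1h2bh, and the genotypes overlap across pairs in each gene.

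H2B promoters are known for an octamer, ATTTGCAT, bound by the transcription factor Oct-1 (Pou2f1). It was searched on both strands in the 150 bases before the start of each RefSeq gene on GRCm38.p6, together with CCAAT, the box bound by NF-Y, and TATAA, a core of the TATA box; the octamer does not contain the other motifs. RefSeq promoters were matched for 62 members, with 63 promoters in all, and Hist1h2bc had none in the table. The octamer occurred in 6 of 17 H2B and 5 of 18 H2A promoters and in 0 of 6 H1, 0 of 10 H3 and 0 of 12 H4 promoters, beside 0.998% of 32851 promoters of all genes. CCAAT occurred in 82.5% of the family's promoters, beside 24.5% of all promoters, and TATAA in 54.0%, beside 14.2%. By class, CCAAT was in 6 of 6 H1, 18 of 18 H2A, 17 of 17 H2B and 8 of 10 H3 promoters. It was in only 3 of 12 H4 promoters (25.0%), near the share of all promoters. The promoters of the 3 H2B genes with a RefSeq entry that were lower in all pairs are shown 5′ to 3′ on the gene's strand, with capitals for these motifs on either strand (ATTGG is CCAAT on the other strand).
Hist1h2bh, chr13:23543445-23543594, minus strand: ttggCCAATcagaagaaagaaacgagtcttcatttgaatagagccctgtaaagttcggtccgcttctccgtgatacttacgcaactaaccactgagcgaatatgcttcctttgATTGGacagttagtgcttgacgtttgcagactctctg
Hist1h2bg, chr13:23571250-23571399, plus strand: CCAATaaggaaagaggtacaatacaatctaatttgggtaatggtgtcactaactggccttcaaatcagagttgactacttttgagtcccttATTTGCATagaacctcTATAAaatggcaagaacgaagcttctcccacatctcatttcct
Hist1h2bm, chr13:21721894-21722043, plus strand: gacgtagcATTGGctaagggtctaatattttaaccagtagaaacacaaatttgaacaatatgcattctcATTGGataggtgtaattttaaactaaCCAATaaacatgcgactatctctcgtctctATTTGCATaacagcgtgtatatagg

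The letters of these 3 promoters differ in what they share with the class. Hist1h2bg and Hist1h2bm hold 1 octamer each, while in Hist1h2bh these exact letters were not found in the window. All 3 hold CCAAT, once in Hist1h2bg, 2 times in Hist1h2bh and 3 times in Hist1h2bm. Many H2A and H2B genes start head to head, a short stretch apart. Hist1h2bc and Hist1h2ac start 251 bases apart, and both were lower in SPOPmut in 6 of 6 pairs. Hist1h2bg was lower in 6 pairs and Hist1h2ae, which starts 176 bases away, in 3. Hist1h2bm was likewise lower in 6 pairs and its neighbour Hist1h2aj, 236 bases away, in 3.

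H1 differed less. Hist1h1c encodes a somatic linker histone and carried 90.8 to 98.4% of the summed RPKM of the class. It (ENSMUSG00000036181.2, chr13:23738808-23740367, plus strand) was at 23.5, 18.8, 19.9, 42.4, 41.9 and 62.6 RPKM in SPOPmut of S0 to S5, against 28.7, 25.8, 23.2, 44.3, 42.4 and 66.7 RPKM in SPOPwt. Each SPOPmut library was below its partner, but differences between pairs were far wider than those within pairs. The mean difference was -0.18 (SE 0.076, limma adjusted p = 0.886). Hist1h1d and Hist1h1b, the next H1 genes, averaged under 1 RPKM, and the H1 sum without Hist1h1c was lower in SPOPmut in 2 of 6 pairs. The whole H1 sum had a mean log2 ratio of -0.19 ± 0.19 (SD, n = 6 pairs), or -0.12 without S1.

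For H4, the class sum was lower in SPOPmut in 5 of 6 pairs, with a mean log2 ratio of -0.23 ± 0.24 (SD, n = 6 pairs), or -0.15 without S1. Hist1h4i (ENSMUSG00000060639.5, chr13:22040636-22041362, minus strand) stood at 9.86, 10.6, 13.9, 3.53, 6.27 and 1.12 RPKM in SPOPmut of S0 to S5. In SPOPwt it stood at 11.7, 14.7, 14.5, 4.43, 7.69 and 1.73 RPKM. Both genotypes were high in S0 to S2 and lowest in S5. Its mean difference was -0.27 (SE 0.067, limma adjusted p = 0.769), with -0.06 in S2 and -0.44 in S1 as the extremes. Hist1h4k and Hist1h4m, the next H4 genes by level, varied in direction: Hist1h4k was at 1.61 RPKM in SPOPmut and 0.67 in SPOPwt of S0, but at 0.53 and 1.92 RPKM in S1. Without Hist1h4i the H4 sum was lower in SPOPmut in 3 of 6 pairs.

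H2A and H3 gave no single direction over the pairs. Their class sums were lower in SPOPmut in 4 of 6 pairs each, with mean log2 ratios of -0.13 ± 0.40 for H2A and -0.25 ± 0.39 for H3 (SD, n = 6 pairs). Without S1 these were -0.042 for H2A and -0.14 for H3; the H2A mean was also -0.064 without S3, -0.22 without S0 and -0.23 without S4. Hist3h2a, the most abundant H2A gene, averaged 3.86 ± 1.16 RPKM in SPOPmut, against 3.85 ± 0.676 RPKM in SPOPwt (SD, n = 6 each; difference -0.02, SE 0.084, limma adjusted p = 0.961). Hist2h2aa1 was higher in SPOPmut in 5 pairs but at 5.57 RPKM in SPOPmut, against 10.8 RPKM in SPOPwt, of S3. All of its 51-base windows recur in other gene models, among them Gm20633, which overlaps it on the opposite strand. The mean difference of Hist2h2aa1 was 0.07 (SE 0.17, limma adjusted p = 0.947), and with S4 left out it was -0.055. Hist1h3g, an H3 gene, was at 1.02, 1.12, 1.36, 0.014, 0.20 and 0 RPKM in SPOPmut of S0 to S5, against 1.04, 1.74, 2.90, 0.059, 0.46 and 0 RPKM in SPOPwt. It was lower in SPOPmut in the 5 pairs where it was detected (difference -0.24, SE 0.11, limma adjusted p = 0.886). Hist1h3d, at 0.16 to 0.50 RPKM in SPOPmut, against 0.28 to 0.87 RPKM in SPOPwt, was the H3 gene lower in all pairs.

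**Figure D3:**
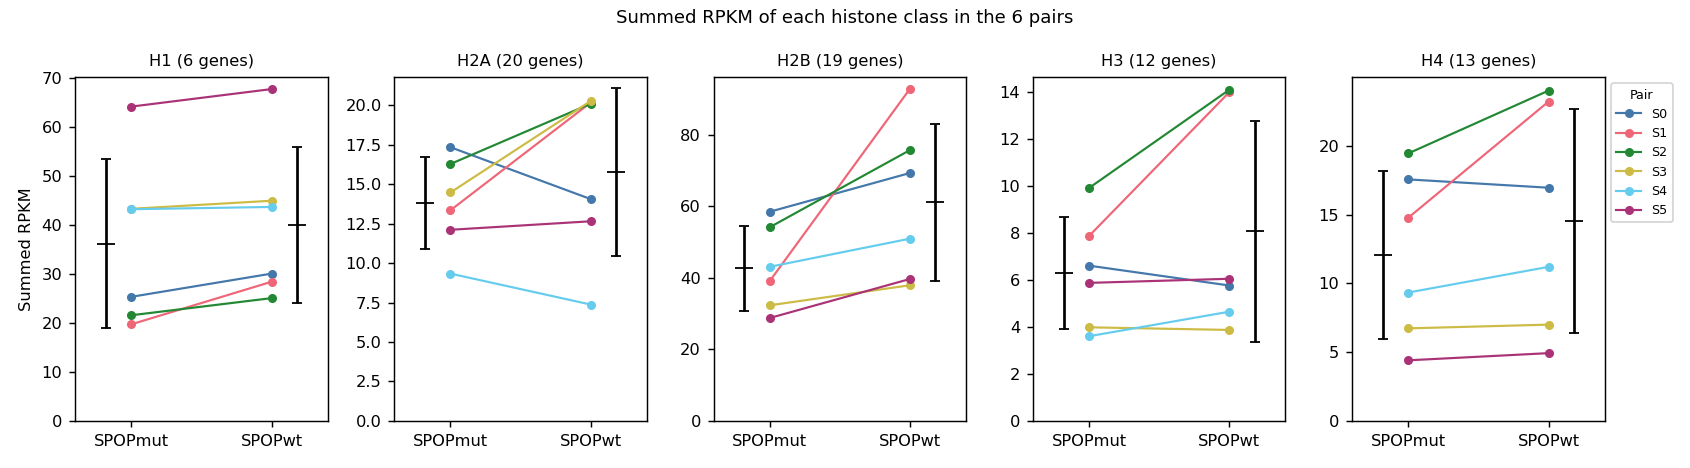
Summed RPKM of each histone class, with 1 line per pair and bars for the mean and SD of each genotype (n = 6). The H1 and H2B lines all run upward to SPOPwt, with H2B of S1 at 39.1 RPKM in SPOPmut, against 92.9 RPKM in SPOPwt, while H2A, H3 and H4 hold lines of both directions.

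Over all 70 genes the summed RPKM averaged 111 ± 11.9 in SPOPmut and 139.5 ± 25.0 in SPOPwt (SD, n = 6 each), with a mean log2 ratio of -0.32 ± 0.31 and the SPOPmut library lower in 6 of 6 pairs. Split by 3′ end, the 46 genes with a stem-loop had a mean log2 ratio of -0.24 ± 0.26 and the 4 H2B genes with no match one of -0.52 ± 0.41 (SD, n = 6 pairs each). The sum of the 4 was 85.3 to 95.1% Hist1h2bc. Within H2B alone, the genes with a stem-loop had a mean log2 ratio of -0.44. They include Hist1h2bg, which shares windows with Hist1h2bc, so the ratios with and without a stem-loop may not be separate. Hist2h2be, the next of the 4 genes with no match, was lower in SPOPmut in 3 of 6 pairs, so the ratio of the 4 follows Hist1h2bc.

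Genes that make and process histone mRNA were set beside the family from a list. Of 19 genes for histone gene transcription and mRNA processing, 18 were tested, 0 were called in either direction by limma, and 16 had a lower mean in SPOPmut, with a median difference of -0.082 beside 0.00055 over all tested genes. Of all tested genes, 49.75% had a lower mean. Without S0 the list's median was -0.010, and without S1 it was -0.13. Slbp, which binds the stem-loop, averaged 8.25 ± 3.58 RPKM in SPOPmut, against 8.28 ± 2.70 RPKM in SPOPwt, and Npat 5.28 ± 0.473 RPKM in SPOPmut, against 5.32 ± 0.397 RPKM in SPOPwt (SD, n = 6 each). Both were lower in SPOPmut in 3 of 6 pairs. Lsm10, a component of the U7 particle that cuts histone pre-mRNA, was lower in SPOPmut in 6 of 6 pairs (-0.19, SE 0.066, limma adjusted p = 0.881), as were 1.68% of tested genes. Ccne1, cyclin E1, which with Cdk2 phosphorylates Npat, was lower in 4 (-0.45, SE 0.23, limma adjusted p = 0.887).

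Replacement histones and chaperones also had 0 genes called by limma. Of 11 replacement histone genes, 7 had a lower mean in SPOPmut, and the median difference was -0.071, or -0.036 without S0, -0.040 without S3 and -0.046 without S5. H2afz, which encodes the variant H2A.Z, was lower in SPOPmut in 6 of 6 pairs (-0.19, SE 0.066, limma adjusted p = 0.881), and H3f3a, which encodes H3.3, was higher in 6 of 6 (0.16, SE 0.081, limma adjusted p = 0.887). Of tested genes, 1.68% were lower and 3.62% higher in all pairs. Of 20 histone chaperone genes, 14 had a lower mean and the median was -0.089 (0.024 without S0). Both counts of lower means stand beside 49.75% of all tested genes. Chaf1a, the large subunit of the replication-coupled chaperone CAF-1, had a difference of -0.30 (SE 0.18, limma adjusted p = 0.887). Atrx, which works with Daxx in depositing H3.3, had one of 0.11 (SE 0.091, limma adjusted p = 0.887).

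Since histone genes are transcribed in S phase, DNA replication and proliferation genes were compared pair by pair. All 29 on the list were tested and had a lower mean in SPOPmut, beside 49.75% of all tested genes. Of the 29, 0 were called by limma. The median difference was -0.18, or -0.057 without S0, -0.12 without S5 and -0.30 without S3. E2f1, a transcription factor of S-phase entry, had a difference of -0.33 (SE 0.13, limma adjusted p = 0.886), and Tyms, thymidylate synthase, one of -0.23 (SE 0.12, limma adjusted p = 0.887). The list median was -0.88 in S0, 0.077 in S1, 0.096 in S2, 0.45 in S3, -0.31 in S4 and -0.46 in S5. In S1, S2 and S3 these genes were thus on balance higher in SPOPmut while the H2B sum was lower, by log2 ratios of -1.25, -0.48 and -0.23. The H3 sum was lower in S1 and S2 (-0.83 and -0.51) and near even in S3 (0.041). In S0 the list was at its lowest, while the H2B ratio was -0.25 and the H3 ratio 0.20. In S4 and S5 the list and the H2B sum were both lower in SPOPmut, with H2B ratios of -0.24 and -0.46. The H3 ratios were -0.37 in S4 and -0.042 in S5. Whether proliferation had a part in the histone ratios was not tested.

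**Figure D4:**
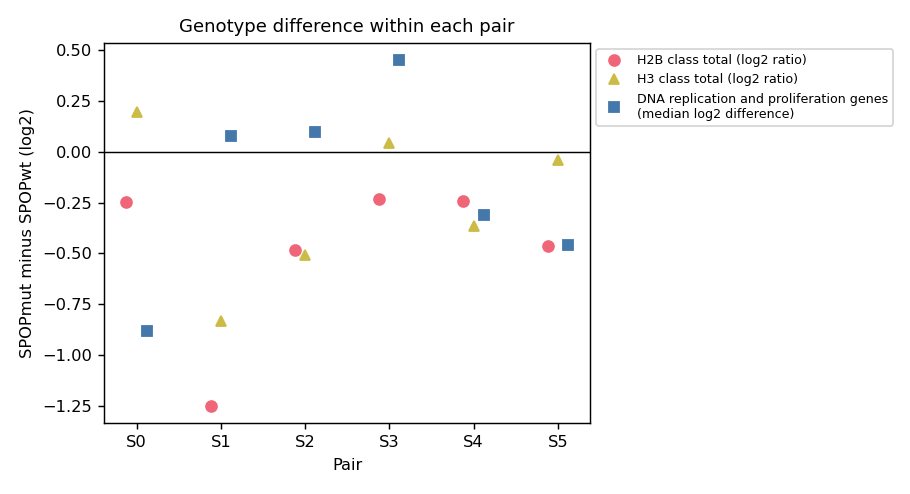
SPOPmut minus SPOPwt on the log2 scale in each pair for the H2B and H3 sums (log2 ratio of summed RPKM) and for 29 DNA replication and proliferation genes (median difference in log2(RPKM + 1)). The H2B points are below 0 in all 6 pairs, whereas the proliferation points are above 0 in S1, S2 and S3 and below 0 in S0, S4 and S5.

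The remaining comparison sets the pair S5 beside S0 to S4. S5 is 2 libraries of 1 pair, so the values carry no test. H1 was higher and H4 lower in S5 than in all other libraries, and the family's total did not stand apart. The H1 sum was 64.2 RPKM in SPOPmut and 67.8 in SPOPwt of S5, against 19.7 to 45.0 RPKM in S0 to S4, a 2.03-fold ratio of means. The H4 sum was 4.40 RPKM in SPOPmut and 4.93 in SPOPwt of S5, against 6.73 to 24.0 RPKM in S0 to S4, a ratio of 0.311. Over all 70 genes the S5 libraries had 115 and 131 RPKM, within the 94.8 to 179 RPKM of S0 to S4.

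Most of the H1 difference and most of the H4 difference between S5 and S0 to S4 came from a single gene each. Hist1h1c, at 62.6 RPKM in SPOPmut and 66.7 in SPOPwt of S5, against 18.8 to 44.3 RPKM in S0 to S4, made the H1 difference, and without it the H1 sum was 1.13 to 1.62 RPKM in S5, inside the 0.70 to 2.62 RPKM of S0 to S4. Hist1h4i was at 1.12 RPKM in SPOPmut and 1.73 in SPOPwt of S5, against 3.53 to 14.7 RPKM in S0 to S4. The H4 sum without it was 3.19 to 3.29 RPKM in S5, inside the 2.57 to 9.46 RPKM of S0 to S4, and its log2 ratio of S5 over S0 to S4 was -0.71, beside -1.69 with Hist1h4i. The H2A sum was 12.1 to 12.7 RPKM in S5 and 7.38 to 20.3 in S0 to S4, and the H3 sum 5.88 to 6.06 RPKM in S5 and 3.61 to 14.1 in S0 to S4. The H2B sum was 28.8 to 39.7 RPKM in S5, against 32.3 to 92.9 RPKM in S0 to S4, so all 3 ranges overlapped.

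Single members divided in both directions. Both S5 libraries were above the other 10 in 5 of 69 detected members (Hist1h1c, Hist1h2bb, Hist2h3c1, Hist2h3c2 and Hist2h4), beside 20.5% of detected genes. They were below the other 10 in 6 (Hist1h3g, Hist1h2ad, Hist2h2be, Hist1h4d, Hist1h4i and Hist3h2a), beside 17.0%. Among tested genes the counts were 2 of 13 members above, beside 21.4%, and 4 of 13 below, beside 28.1%. Of the 5 members above, 3 are Hist2 genes of chromosome 3, although Hist2h4 did not exceed 0.182 RPKM. Hist2h3c1 and Hist2h3c2 encode H3. Hist2h3c1 stood at 2.09 RPKM in SPOPmut and 2.69 in SPOPwt of S5, against 0.36 to 1.84 RPKM in S0 to S4, and Hist2h3c2 at 1.45 and 1.64 RPKM, against 0.22 to 0.72 RPKM. All 51-base windows of Hist2h3c1 recur in other gene models, among them Gm20634, which overlaps it on the same strand. Other genes held 63.5% of the windows of Hist2h3c2, most often Gm20634 as well. The values of Hist2h3c1 and Hist2h3c2 are thus uncertain and may not be separate.

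Among the H3 genes of the chromosome 13 cluster, Hist1h3g was listed at 0 in both S5 libraries, and Hist1h3c was at 0.074 RPKM in SPOPmut and 0.23 in SPOPwt of S5, against 0.16 to 2.86 RPKM in S0 to S4. The SPOPwt library of S5 was thus inside the range of the others for Hist1h3c, and so it was for Hist1h3b, which was at 1.57 RPKM in SPOPmut and 0.75 in SPOPwt of S5, against 0.049 to 1.17 RPKM in S0 to S4. Hist2h3c1 made up 39.9% of the H3 sum in S5 and 20.1% in S0 to S4. Hist1h2bb, an H2B gene, was at 4.89 RPKM in SPOPmut and 1.51 in SPOPwt of S5, against 0.38 to 1.30 RPKM in S0 to S4.

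**Figure D5:**
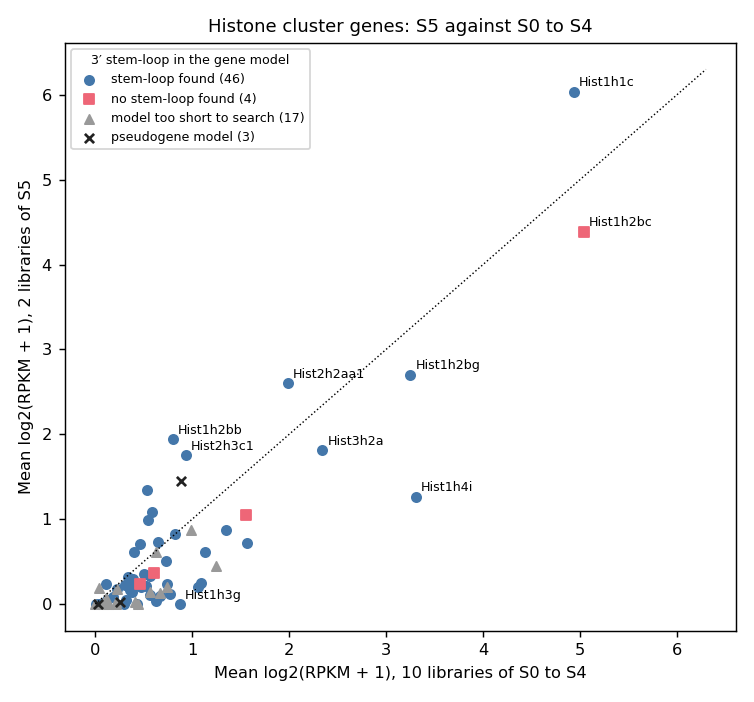
Mean log2(RPKM + 1) of each histone gene in the 2 libraries of S5 (vertical) against the 10 libraries of S0 to S4 (horizontal), with marks for the state of the 3′ stem-loop in the gene model and a dotted line of equality. Hist1h1c and Hist1h2bb lie above the line and Hist1h4i and Hist1h2bc below it, with stem-loop genes on both sides.

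Epithelial and fibroblast markers differed in this contrast, and so did Mki67 and part of the proliferation list. Of its 29 genes, 15 had both S5 libraries below the other 10, beside 28.1% of tested genes, and 0 had both above. Mki67, a protein of cycling cells, was at 0.63 RPKM in SPOPmut and 1.65 in SPOPwt of S5, against 5.70 to 55.0 RPKM in S0 to S4. The luminal and general epithelial markers Krt8, Krt18, Epcam and Cdh1 summed to 1069 to 1155 RPKM in S5 and 8.80 to 112 RPKM in S0 to S4. Immune markers (Ptprc and Cd68) summed to 3.86 to 4.16 RPKM in S5 and 2.13 to 4.74 in S0 to S4, with Ptprc at 0 in 9 of 12 libraries, and the endothelial markers Pecam1 and Cdh5 to 0.072 to 0.11 RPKM in S5 and 0.011 to 1.28 in S0 to S4. The part of cell makeup and of cycling in the histone values was not tested, and in bulk RNA fewer cells of a type and less RNA per cell cannot be told apart. Within S0 to S4 levels were uneven as well: the H3 sum was 5.77 to 14.1 RPKM in S0 to S2 and 3.61 to 4.66 RPKM in S3 and S4, while Mki67 was 31.2 to 55.0 RPKM in S0 to S2, 5.70 to 8.52 RPKM in S3 and 32.4 to 37.1 RPKM in S4. The H2B sum was 32.3 to 37.9 RPKM in S3 and 43.1 to 50.9 RPKM in S4. The H4 sum was 6.73 to 7.00 RPKM in S3 and 9.33 to 11.2 RPKM in S4. Both were higher in S4, as Mki67 was. The H2A sum went the other way, at 14.5 to 20.3 RPKM in S3 and 7.38 to 9.34 RPKM in S4. The H1 sums overlapped, at 43.3 to 45.0 RPKM in S3 and 43.3 to 43.7 RPKM in S4. The H3 sum of 3.88 to 3.99 RPKM in S3 lay inside its 3.61 to 4.66 RPKM of S4.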

How the data were processed

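Per the labels' protocols, organoid RNA was prepared with the TruSeq RNA Library Preparation Kit v2, a kit without strand marking; paired 51-base reads came from a HiSeq 2500. Per the submitters' processing notes, STAR 2.4.0j was used with mm10 and GRCm38; for the counting program, the annotation and multiply mapped reads, nothing is given in the sources used here. The deposited values are RPKM per gene, 1 file per library, as the authors named the files, with gene length and depth already divided out. Low values gave counting steps only for 37.7 to 40.0% of genes within 0.05 of a whole step (10.0% by chance), so no count test was run.

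Groups were taken from sample titles. Values were taken as log2(RPKM + 1), so differences of genes of low level are understated. limma 3.58.1 in R 4.3.3 fitted pair and genotype with a trended, robust prior to genes at 1 RPKM or more in at least 6 of 12 libraries, with two-sided p-values adjusted by Benjamini-Hochberg over all of them and called under 0.05. The protocols speak of pairs, and correlations of same-numbered libraries were 0.753, 0.888, 0.946, 0.862 and 0.954 in S1 to S5 and 0.0602 in S0. No libraries were identical (lowest median chi-square 1.26 between SPOPwt S1 and S2), and none were merged. Within each group the labels give S1 the index of S3 and S2 that of S4, and no other batch.

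The members, lists and tests were chosen with earlier results of these data known. Members named were Hist1h2bh, the 3 most abundant of each class, those of 1 direction in all pairs at a mean of at least 0.5 RPKM in either genotype, and the 5 with the largest S5 difference in each direction; from each list, the 2 of smallest p. Other members, Spop and single markers were named after their values were seen. Class sums, ratios and shares were computed with pandas 2.3.3 and numpy 2.4.6 under Python 3.11.15, and plotted with matplotlib 3.10.9. Gene models and stem-loops came from GENCODE M21 (GRCm38) and promoters from RefSeq (GRCm38.p6). Alternatives were another pseudocount, other filters, quantile and median-of-ratios scaling, no pair block, class sums by other rules and leaving out each pair.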

Additional observations from a re-analysis of the deposited data

Results flagged for a closer look

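In 75 groups of 6 values, 7 had a lowest or highest value whose gap to the next, over the group's range, exceeded Dixon's limit of 0.625. Chance gives about 1 in 20 only for separate groups chosen without regard to their values. Here Hist1h2bb and Hist2h3c2 were named for their S5 values, and Hist1h2bc made up 56.1 to 69.5% of the H2B sum. The 7 are thus not set against that rate. Of the 7, 4 concern pair S1. The log2 ratio of SPOPmut over SPOPwt of the H2B sum was -1.25 in S1, apart from the other 5 pairs. The log2(RPKM + 1) difference of Hist1h2bc was -1.29 in S1 and that of Hist1h2bg -1.41, also apart from the other pairs. Hist1h2bh stood at 4.25 RPKM in SPOPwt of S1, above the other SPOPwt libraries. The other 3 concern S5, where Hist1h2bb was at 4.89 RPKM in SPOPmut, and Hist2h3c2 at 1.45 RPKM (SPOPmut) and 1.64 RPKM (SPOPwt), each above the other 5 libraries of its genotype.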

How the results depend on the processing

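Under every alternative limma called 0 genes and 0 members, the fit with no replicate block (0 genes at adjusted p under 0.05; 17 higher and 12 lower at unadjusted p) included, and the block changed no call. At unadjusted p under 0.05, 520 genes were higher and 241 lower in SPOPmut with the deposited scaling, 473 and 353 after quantile normalization, and 430 and 317 after median-of-ratios scaling. Members lower in SPOPmut in all pairs numbered 8, and 9 to 11 with 1 pair left out. Members higher in all pairs numbered 0, and 0 to 2 (2 without S1, 1 without S3). Leaving out a pair cannot lower such a count, so these ranges do not measure stability. The mean log2 ratio of the H2B sum was -0.54 to -0.33 with 1 pair left out, the lowest size being without S1. The log2 ratio of S5 over S0 to S4 was 1.02 for the H1 sum, but -0.084 without Hist1h1c and 0.16 as a mean of log2(RPKM + 1) over members. For the H4 sum it was -1.69, but -0.71 without Hist1h4i and -0.31 as a mean over members; for H3 it was -0.32, but -0.85 without Hist2h3c1, -0.044 with stem-loop genes alone, and -0.48 (without S3) to -0.078 (without S2) with 1 pair left out, -0.14 without S1. For H2A it was -0.30, and -0.46 without S4. With 1 pair left out, the difference of Hist3h2a was -0.064 to 0.045 (above 0 without S5, -0.02 with all pairs) and that of Hist2h2aa1 -0.055 to 0.25 (below 0 without S4, 0.07 with all pairs). The median of the histone chaperones ran from -0.14 to 0.024 and that of the proliferation genes from -0.30 to -0.057 with 1 pair left out. Causes of these shifts were not tested, except that the sums without 1 gene lack that gene by construction. Depth limits the 39 members with a mean under 0.5 RPKM most.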
